A study of Mus musculus with 8 samples.

Results

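The genes followed here encode 10 cytokines that lymphocytes release or display on their surface after activation: Tnf, Csf2, Lta, Ltb, Il3, Il10, Il16, Tnfsf14, Tnfsf11 and Tgfb1. They were taken by gene symbol from a table of 45777 genes, and all 10 were found. Their RNA was counted in mouse CD8+ T cells, the cytotoxic branch of the T cell lineage, obtained from C57BL/6 lymph node and spleen. The cells of all groups were stimulated through the T cell receptor and the co-stimulatory receptor with antibodies to CD3 and CD28, and cultured for 48 hours in the presence of 1 agent per group. The groups were EnPGC-1, SGC-CBP30, Ctrl PIP and the vehicle DMSO, with 2 libraries each and 8 libraries in all. PIPs, or pyrrole-imidazole polyamides, are small molecules that bind the minor groove of DNA. The series counts all 3 compounds among them, although SGC-CBP30 is generally known as a compound that blocks the acetyl-lysine reading domains of CBP and p300, a pair of histone acetyltransferases. The labels give no doses, no time course, no unstimulated cells and no age or sex of the mice. They do not say whether the 2 libraries of a group came from separate animals or cultures, so that p-values reflect variation among single libraries that could be purely technical. With 48 hours as the single time, an early and a late phase of a cytokine's expression cannot be told apart, and in bulk RNA fewer cells that express a gene and less RNA per cell cannot be told apart either.

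TNF, lymphotoxin, LIGHT and RANKL belong to 1 family of ligands, the TNF superfamily, which bind receptors that signal through TRAF adaptors to NF-kappaB or, for receptors with a death domain, to cell death. Lta encodes lymphotoxin alpha, which is secreted on its own or pairs with the membrane protein encoded by Ltb, and both are needed to build lymphoid tissue. Tnfsf14 encodes LIGHT and Tnfsf11 encodes RANKL, a ligand that drives osteoclast formation. Csf2 encodes GM-CSF and Il3 encodes interleukin 3, neighbouring genes whose products act on myeloid cells through receptors with a shared beta chain. Il10 and Tgfb1 encode cytokines that restrain immune responses, and Il16 encodes a precursor protein whose cleaved end attracts cells that carry CD4. In T cells the genes for TNF, lymphotoxin alpha, GM-CSF and interleukin 3 are switched on by receptor signals through NFAT, AP-1 and NF-kappaB, while Ltb, Il16 and Tgfb1 are already transcribed in resting lymphocytes.

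The promoters of 5 of these genes are shown. The first 3 belong to genes that were lower with both EnPGC-1 and SGC-CBP30 in the same libraries. The fourth, Tgfb1, was lower in those libraries too, and was chosen as the tested cytokine with the smallest fold range over the libraries. Csf2, also lower in them, is not shown. The fifth belongs to the most abundant of the 10. The sequences are from RefSeq on GRCm38.p6, whose table held 9 of the 10 genes, and run from 250 bases before to 50 bases after the annotated start site, 5′ to 3′ on the strand of the gene. Capitals mark GGAAA and its reverse complement TTTCC, the core letters recognised by NFAT.
Tnf, chr17:35201958-35202257, minus strand: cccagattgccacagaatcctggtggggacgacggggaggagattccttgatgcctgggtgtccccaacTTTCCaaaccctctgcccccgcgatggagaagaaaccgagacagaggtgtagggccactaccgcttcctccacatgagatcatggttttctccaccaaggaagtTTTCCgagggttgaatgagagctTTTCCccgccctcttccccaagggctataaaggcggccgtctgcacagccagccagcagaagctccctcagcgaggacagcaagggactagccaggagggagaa
Tnfsf14, chr17:57194132-57194431, minus strand: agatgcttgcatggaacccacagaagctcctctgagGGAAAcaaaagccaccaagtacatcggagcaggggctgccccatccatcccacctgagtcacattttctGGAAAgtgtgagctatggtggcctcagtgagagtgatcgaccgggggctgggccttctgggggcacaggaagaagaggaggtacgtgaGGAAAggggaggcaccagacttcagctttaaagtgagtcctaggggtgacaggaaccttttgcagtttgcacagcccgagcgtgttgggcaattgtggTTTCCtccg
Tnfsf11, chr14:78307994-78308293, minus strand: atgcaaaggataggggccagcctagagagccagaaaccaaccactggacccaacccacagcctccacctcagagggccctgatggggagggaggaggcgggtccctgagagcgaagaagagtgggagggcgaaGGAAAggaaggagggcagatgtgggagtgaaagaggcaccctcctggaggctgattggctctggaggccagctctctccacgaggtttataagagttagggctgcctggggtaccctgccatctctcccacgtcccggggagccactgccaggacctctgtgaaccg
Tgfb1, chr7:25686752-25687051, plus strand: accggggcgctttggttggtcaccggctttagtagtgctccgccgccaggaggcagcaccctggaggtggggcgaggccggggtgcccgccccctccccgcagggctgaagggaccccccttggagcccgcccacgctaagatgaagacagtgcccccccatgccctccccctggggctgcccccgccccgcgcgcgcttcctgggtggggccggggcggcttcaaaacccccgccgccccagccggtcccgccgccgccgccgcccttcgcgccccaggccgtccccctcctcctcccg
Ltb, chr17:35194257-35194556, plus strand: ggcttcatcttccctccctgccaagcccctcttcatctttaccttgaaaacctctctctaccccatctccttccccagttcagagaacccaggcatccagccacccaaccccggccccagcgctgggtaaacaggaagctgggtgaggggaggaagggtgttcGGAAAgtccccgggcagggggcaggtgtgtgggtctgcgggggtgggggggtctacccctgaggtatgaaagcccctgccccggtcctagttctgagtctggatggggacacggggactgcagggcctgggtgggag
The core GGAAA was searched on both strands and occurred 3 times in the Tnf promoter, at positions -181, -77 and -54 from the start site. It occurred 4 times in the Tnfsf14 promoter, 1 time in each of Tnfsf11 and Ltb, and 0 times in that of Tgfb1, and 61.3% of the 32851 promoters that RefSeq gives held it at least 1 time. Of the promoters not shown, those of Lta and Csf2 held 3 each, that of Il3 held 1, and the 3 start sites of Il16 held 1, 1 and 3. The letters TATAAA stood at -29 in Tnf and, on the other strand, at -32 in Tnfsf11, as well as at -167 in Lta, and 13.6% of all promoters held them on either strand. The NF-kappaB letters GGG, any 2 bases, TT, any base and CC matched 1 time in Ltb, at -87 and over the same bases as its GGAAA, 1 time at the third start site of Il16, and in 4.79% of all promoters. The AP-1 letters TGANTCA matched 1 time in Tnfsf14, at -160, 1 time at the first start site of Il16, at -18, and in 7.81% of all promoters. A match describes these letters only, and no binding was measured.

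Ltb, Tnf and Lta lie side by side on chromosome 17. Ltb occupies 35194507 to 35196305 on the plus strand, Tnf 35199367 to 35202007 and Lta 35203165 to 35205578 on the minus strand, with 3.06 kb between Ltb and Tnf and 1.16 kb between Tnf and Lta. Csf2 (chromosome 11, 54247270 to 54249899) and Il3 (54265085 to 54267279) lie 15.2 kb apart, both on the minus strand. Tnfsf14 lies farther along chromosome 17 (57189474 to 57194181, minus strand) and Tnfsf11 on chromosome 14 (78277446 to 78308043, minus strand). Il16 (83642819 to 83746028, minus strand) and Tgfb1 (25687002 to 25705077, plus strand) are on chromosome 7, and Il10 is on chromosome 1 (131019845 to 131024970, plus strand). Short microRNA genes lie inside Lta and Ltb, with at most 19 and 114 counts in a library, and reads shared between them and their hosts could not be separated.

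The libraries held 38890043 to 55491261 counts and 18348 to 19057 detected genes each. The rank correlation across genes between a library's deviation from the mean and transcript length was positive in library 1 of EnPGC-1, both SGC-CBP30 libraries and library 1 of DMSO (0.48 to 0.56) and negative in library 2 of EnPGC-1, both Ctrl PIP libraries and library 2 of DMSO (-0.61 to -0.20). It thus differed within the EnPGC-1 and DMSO groups, but separated both SGC-CBP30 libraries from both Ctrl PIP libraries. Library 2 of EnPGC-1 and library 2 of DMSO also had 9040 and 10100 CPM of a ribosomal RNA gene, Rn18s-rs5, against 1120 to 2310 CPM in the other 6. Of the 10 CD8 T cell markers, 10 were measured and summed to 4220 to 5980 CPM. The 5 markers of CD4 and regulatory T cells summed to 331 to 685 CPM, 69.4% of it Ctla4, which activated CD8 cells also express. The 14 myeloid markers summed to 13.1 to 34.6 CPM with EnPGC-1, 11 to 13.6 with SGC-CBP30, 15.9 to 17.1 with Ctrl PIP and 17.8 to 26.5 with DMSO. For the 8 markers of NK and innate lymphoid cells the sums were 3.99 to 20, 6.39 to 7.03, 10 to 16.7 and 10.4 to 14.2 CPM in the same order, and 8 of the 8 had a negative estimate for SGC-CBP30 against Ctrl PIP (median -1.95). The sum of 20 was in library 1 of EnPGC-1, where Gata2 alone was at 14 CPM, against 0.427 in library 2. Gata2 was next highest in library 1 of DMSO, at 5.47 CPM, as were Cpa3, Mcpt8 and Prss34 of the mast cell and basophil list. The sum of 20 is therefore not specific to NK and innate lymphoid cells. The 12 B cell and plasma cell markers summed to 848 to 878 CPM with EnPGC-1, 804 to 886 with SGC-CBP30, 663 to 701 with Ctrl PIP and 676 to 1040 with DMSO, of which 94% was Ighm. Of the 12, 12 had a positive estimate for EnPGC-1 over Ctrl PIP, and their median log2 fold change was 1.52. Against DMSO, 10 of the 12 had a negative estimate for SGC-CBP30 (median -2.15) and 12 of 12 for Ctrl PIP (median -1.06). The 8 mast cell and basophil markers summed to 20.2 to 114 CPM with EnPGC-1, 16.4 to 23.1 with SGC-CBP30, 10.5 to 14.8 with Ctrl PIP and 5.97 to 40.3 with DMSO, and 8 of the 8 had a positive estimate for EnPGC-1 against Ctrl PIP (median 3.49) and against DMSO (median 2.34). These estimates lean on library 1 of EnPGC-1, where Cpa3, Mcpt8 and Prss34 were at 20.8, 12.5 and 20.2 CPM. In library 2 they were at 0.297, 0.427 and 0.13. Kit, at 43 and 17.6 CPM, and Hdc were above both Ctrl PIP libraries in both. The 9 erythroid and platelet markers summed to 23.6 to 83, 7.56 to 23.2, 11.2 to 14.4 and 14.1 to 41.6 CPM in the same order, and the 7 of them that were tested had positive estimates for EnPGC-1 against both controls and negative ones for SGC-CBP30 against DMSO (median -1.82). Pf4 and Ppbp were at 24 and 10.5 CPM in library 1 of EnPGC-1 and at 0.538 and 0 in library 2. The haemoglobin genes of the list were higher in library 2. The 7 stromal markers summed to 213 to 218 CPM with EnPGC-1, 223 to 224 with SGC-CBP30, 155 to 156 with Ctrl PIP and 120 to 197 with DMSO, 99.3% of it Pecam1. No other gene of that list exceeded 2.52 CPM in a library, and Cdh5 reached at most 0.111. The sum thus describes Pecam1 and cannot be read as an amount of stromal cells. Of all these markers 0 were at 0 in every library. The part of these differences in the results below was not tested.

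The 10 genes spanned a wide range of levels. Per kilobase of the longest annotated transcript, which allows genes to be compared, Ltb averaged 264 CPM per kb over the 8 libraries, Il16 67.5 and Tgfb1 54.5. Il16, which has several start sites, was divided by 5260 bases, and shorter transcripts were not tried. Lta was at 13.7 CPM per kb, Tnf at 4.25, Tnfsf14 at 3.71, Tnfsf11 at 2.77 and Csf2 at 0.668, while Il3 and Il10 were at 0.0973 and 0.0724. The lowest Ltb library (183) was above the highest Il16 library (79.5), and the lowest Tgfb1 library (45.6) above the highest Lta library (30.8). The lowest Lta library (7.51) was likewise above the highest Tnf library (7.21), and the lowest Tnfsf11 library (1.31) above the highest Csf2 library (1.14). The other neighbours in this order overlapped. Il16 reached down to 49 where Tgfb1 reached up to 61.4, and Tnf (1.62 to 7.21), Tnfsf14 (1.59 to 6.29) and Tnfsf11 (1.31 to 5.02) could not be placed in order beyond their spread. The genes also varied to different degrees. The highest library exceeded the lowest 4.46-fold in CPM for Tnf, 4.1-fold for Lta, 3.95-fold for Tnfsf14 and 3.82-fold for Tnfsf11, but 2.01-fold for Ltb, 1.62-fold for Il16 and 1.35-fold for Tgfb1.

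**Figure D1:**
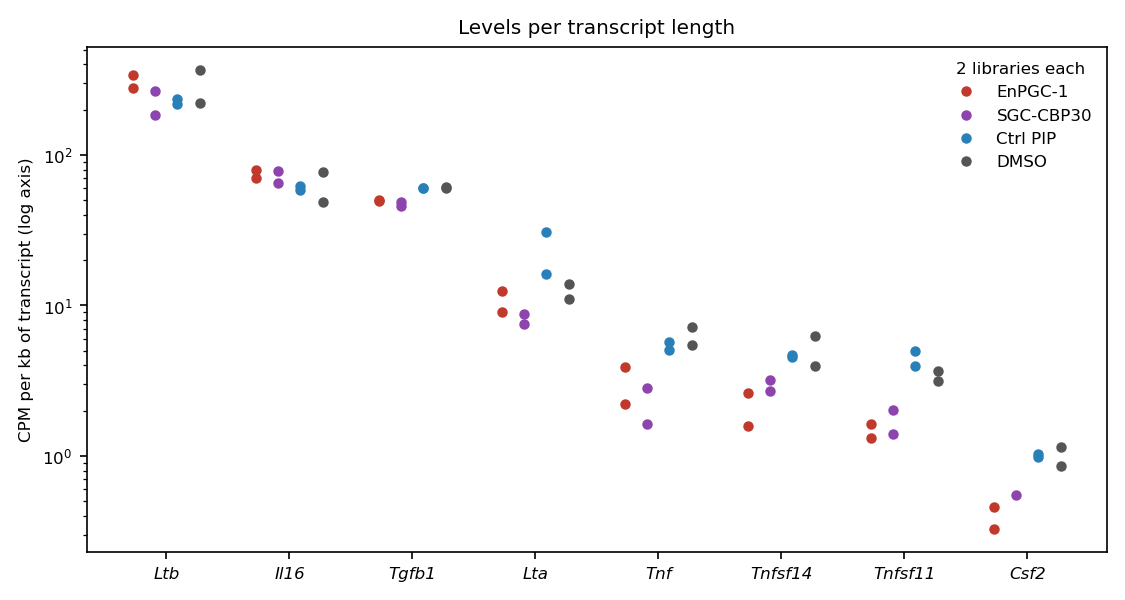
Level of the 8 tested cytokine genes in CPM per kb of transcript (log axis), with 1 point per library and the groups ordered EnPGC-1, SGC-CBP30, Ctrl PIP and DMSO within each gene; a Csf2 library listed at 0 has no point. Ltb lies above every other gene in all 8 libraries, and Tnf, Tnfsf14 and Tnfsf11 share a range.

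A gene entered the tests when its counts passed edgeR's filter on low values, and 8 of the 10 did. Each was tested with edgeR's quasi-likelihood test on all 16750 genes that passed and all 8 libraries. P-values were adjusted over all these genes (Benjamini-Hochberg) with a threshold of 0.05. By that test 0 of the 8 were called in any of the comparisons, and so were 0 of all 16750 genes. What follows are measured levels, estimates with their standard errors, and unadjusted p-values beside the share of all genes that reach the same limit of 0.05. The fit had 4 residual degrees of freedom and a common coefficient of variation of 0.415 between libraries of 1 group.

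Of the TNF superfamily genes, Tnf, Tnfsf14 and Tnfsf11 were lower with EnPGC-1 and SGC-CBP30 than with Ctrl PIP or DMSO in every library. Tnf, the inflammatory cytokine that gives the family its name, was at 3.64 and 6.37 CPM with EnPGC-1, at 2.65 and 4.65 with SGC-CBP30, at 8.34 and 9.31 with Ctrl PIP and at 8.96 and 11.8 with DMSO. All 4 libraries with EnPGC-1 or SGC-CBP30 lay below all 4 with Ctrl PIP or DMSO, and the group means were 5.01 ± 1.93, 3.65 ± 1.41, 8.82 ± 0.683 and 10.4 ± 2.01 CPM in that order (SD, n = 2 each). The log2 fold change of Tnf was -1.05 (SE 0.40) for EnPGC-1 against DMSO (edgeR unadjusted p = 0.0375, adjusted p = 0.998) and -1.51 (SE 0.41) for SGC-CBP30 against DMSO (edgeR unadjusted p = 0.00872, adjusted p = 0.943). Against Ctrl PIP it was -0.82 (SE 0.40) with EnPGC-1 and -1.27 (SE 0.41) with SGC-CBP30. Without library 1 of EnPGC-1 the Tnf estimate for EnPGC-1 against Ctrl PIP was -0.47, and without library 2 it was -1.28. With an offset for transcript length and GC content the estimates against DMSO were -0.90 with EnPGC-1 and -1.26 with SGC-CBP30, and those against Ctrl PIP -0.66 and -1.02 in the same order.

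Tnfsf14, whose product LIGHT co-stimulates T cells through the receptor HVEM, stood at 2.94 and 4.88 CPM with EnPGC-1, at 5.87 and 5.02 with SGC-CBP30, at 8.40 and 8.71 with Ctrl PIP and at 7.35 and 11.6 with DMSO. Here too the 4 libraries with EnPGC-1 or SGC-CBP30 lay under the 4 others, and the EnPGC-1 libraries lay under those with SGC-CBP30. Its log2 fold change was -1.28 (SE 0.36) for EnPGC-1 against DMSO (edgeR unadjusted p = 0.0107, adjusted p = 0.998) and -0.80 (SE 0.36) for SGC-CBP30 against DMSO (edgeR unadjusted p = 0.0626, adjusted p = 0.943). The SGC-CBP30 estimate was -0.43 without library 2 of DMSO, -0.32 without library 2 of both groups and -1.21 without library 1 of both. A fit without library 1 of both EnPGC-1 and DMSO leaves 1 library in each of these groups and takes it to vary like the others. The EnPGC-1 estimate there was -1.25 with an edgeR adjusted p of 0.041 (0.041 to 1 over all alternatives), and 1095 genes were called (6.44% of those tested).

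Tnfsf11, the gene for RANKL, was at 2.94 and 3.64 CPM with EnPGC-1, at 3.15 and 4.50 with SGC-CBP30, at 8.90 and 11.2 with Ctrl PIP and at 6.99 and 8.24 with DMSO. The same 4 libraries were again below the other 4, with means of 3.29 ± 0.495, 3.82 ± 0.954, 10.1 ± 1.64 and 7.61 ± 0.882 CPM in that order (SD, n = 2 each). Its log2 fold change against DMSO was -1.21 (SE 0.31) with EnPGC-1 (edgeR unadjusted p = 0.00655, adjusted p = 0.998) and -0.99 (SE 0.31) with SGC-CBP30 (edgeR unadjusted p = 0.0157, adjusted p = 0.943). Against Ctrl PIP it was -1.61 (SE 0.31) with EnPGC-1 (edgeR unadjusted p = 0.00154, adjusted p = 0.812) and -1.40 (SE 0.31) with SGC-CBP30 (edgeR unadjusted p = 0.0032, adjusted p = 0.871). DESeq2, the other count test, called it in both comparisons with Ctrl PIP, with adjusted p of 0.00267 with EnPGC-1 and 0.0116 with SGC-CBP30 (up to 1 over the other alternatives for both), where it called 0.293% and 0.317% of all genes.

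**Figure D2:**
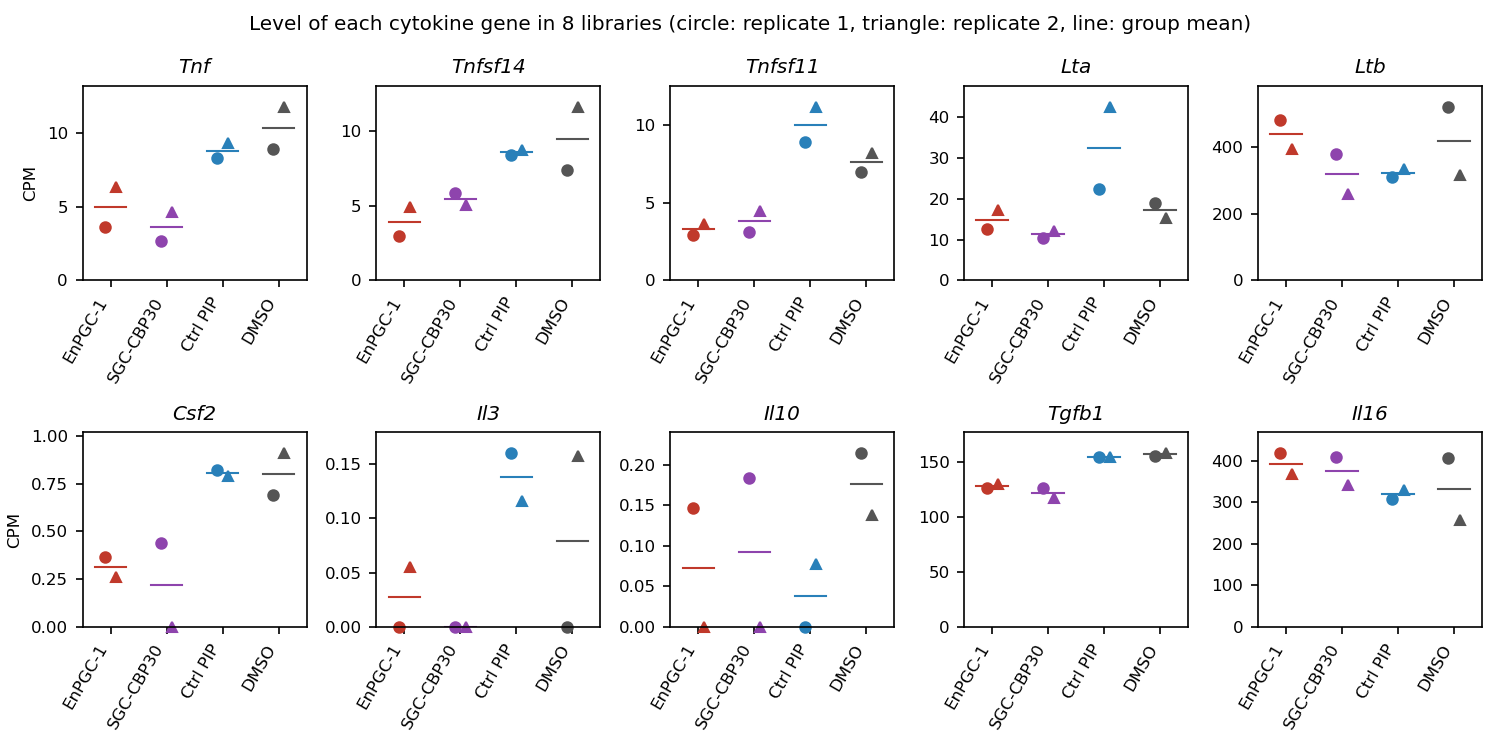
CPM of each of the 10 cytokine genes in the 8 libraries, with EnPGC-1, SGC-CBP30, Ctrl PIP and DMSO along the x axis, a circle for library 1, a triangle for library 2 and a line for the mean of the group; each panel has its own axis from 0. In Tnf, Tnfsf14, Tnfsf11, Csf2 and Tgfb1 the 4 libraries on the left lie below the 4 on the right, and in Ltb and Il16 they do not.

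For the lymphotoxin genes the EnPGC-1 and DMSO libraries overlapped. Lta stood at 12.5 and 17.2 CPM with EnPGC-1, at 10.4 and 12.2 with SGC-CBP30, at 22.4 and 42.5 with Ctrl PIP and at 19.0 and 15.3 with DMSO. The SGC-CBP30 libraries were the lowest, and library 2 of Ctrl PIP stood well above the other 7, so that the Ctrl PIP mean was 32.4 ± 14.3 CPM (SD, n = 2). The log2 fold change of Lta was -0.21 (SE 0.35) for EnPGC-1 and -0.60 (SE 0.35) for SGC-CBP30 against DMSO, but -1.13 (SE 0.35) and -1.52 (SE 0.36) for EnPGC-1 and SGC-CBP30 against Ctrl PIP. Without library 2 of Ctrl PIP these last 2 estimates were -0.58 and -0.98. DESeq2 called Lta for SGC-CBP30 against Ctrl PIP (adjusted p = 0.0462, and 0.0186 to 1 over all alternatives). For Ctrl PIP against DMSO it was 0.92 (SE 0.35; edgeR unadjusted p = 0.0371, adjusted p = 1), and 0.39 without library 2 of Ctrl PIP.

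Ltb, the most abundant of the 10, was at 480 and 395 CPM with EnPGC-1, at 378 and 259 with SGC-CBP30, at 310 and 333 with Ctrl PIP and at 520 and 315 with DMSO. The 2 DMSO libraries lay at the top and near the bottom of this range and overlapped all 3 compounds. The log2 fold change was 0.07 (95% interval -0.69 to 0.82) for EnPGC-1 and -0.39 (-1.15 to 0.37) for SGC-CBP30 against DMSO. The neighbouring genes Tnf and Ltb thus gave different values over the same libraries, with a Pearson r of -0.15 between their log2 CPM over the 8 libraries, while Tnf and Lta had an r of 0.68.

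Csf2 had few counts: 15 and 14 with EnPGC-1, 24 and 0 with SGC-CBP30, 41 and 41 with Ctrl PIP and 29 and 46 with DMSO. In CPM these were 0.364 and 0.26, 0.442 and 0, 0.82 and 0.79, and 0.69 and 0.909 in that order. All 4 libraries with EnPGC-1 or SGC-CBP30 were below the other 4, but the log2 fold changes against DMSO, -1.35 with EnPGC-1 and -1.84 with SGC-CBP30, had standard errors of 1.37 and 1.39. Library 2 of SGC-CBP30 is listed at 0 where the other 7 hold 14 to 46 counts. Of the 13648 genes with at least 14 counts in 7 or more libraries, 62 (0.454%) were likewise at 0 in the remaining library, and whether this 0 is a true absence was not tested. Without that library the SGC-CBP30 estimate against DMSO was -0.84. Il3, its neighbour, had 0 and 3 counts with EnPGC-1, 0 and 0 with SGC-CBP30, 8 and 6 with Ctrl PIP and 0 and 8 with DMSO. It was not tested, and at most 3 counts in the 4 libraries with EnPGC-1 or SGC-CBP30 cannot be told from the 0 in library 1 of DMSO.

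Of the cytokines that restrain responses, Il10 was barely detected, with 6 and 0 counts with EnPGC-1, 10 and 0 with SGC-CBP30, 0 and 4 with Ctrl PIP and 9 and 7 with DMSO. It did not pass the filter, and at 10 counts or fewer in each library no order of the groups was read from it. Tgfb1 was abundant and had the smallest fold range of the 8 tested genes, at 126 and 130 CPM with EnPGC-1, 126 and 117 with SGC-CBP30, 155 and 155 with Ctrl PIP and 156 and 158 with DMSO. Its 4 libraries with EnPGC-1 or SGC-CBP30 lay under the other 4, by a small margin in fold terms. The log2 fold change against DMSO was -0.30 (SE 0.16; 95% interval -0.69 to 0.10) with EnPGC-1 and -0.37 (SE 0.16; -0.76 to 0.02) with SGC-CBP30, and -0.02 (SE 0.16) with Ctrl PIP. Il16 ran the other way in its estimates, at 418 and 369 CPM with EnPGC-1, 410 and 342 with SGC-CBP30, 309 and 329 with Ctrl PIP and 406 and 258 with DMSO. Both compounds overlapped DMSO, with log2 fold changes of 0.25 (SE 0.27) for EnPGC-1 and 0.18 (SE 0.27) for SGC-CBP30, and both lay above the 2 Ctrl PIP libraries.

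Read comparison by comparison, EnPGC-1 against DMSO had 5 of the 8 tested genes with both treated libraries below both DMSO libraries (Tnf, Csf2, Tnfsf14, Tnfsf11 and Tgfb1) and 0 above, where 9.24% of all genes tested lay below and 9.83% above. By unadjusted p 3 of the 8 were lower (1.81% of all genes) and 0 higher (0.8%). By adjusted p edgeR called 0 of the 8 (0% of all genes), as did DESeq2 (0.143%). The median log2 fold change of the 8 was -0.67, beside 0.00 over all genes. SGC-CBP30 against DMSO had 6 of 8 below, the same 5 and Lta (14.5%), and 0 above (16.2%). By unadjusted p 2 of 8 were lower (2.82%) and 0 higher (1.57%), and DESeq2 called 0 after adjustment (0.527%). Its median was -0.70, beside -0.03 over all genes.

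With Ctrl PIP in place of the vehicle, EnPGC-1 had 6 of 8 below (21.7% of all genes) and 2 above, Ltb and Il16 (20.7%), with 3 lower (2.77%) and 0 higher (1.71%) by unadjusted p. SGC-CBP30 had the same 6 below (30.2%) and Il16 above (31.5%), with 3 lower (2.56%) and 0 higher (1.43%) by unadjusted p. A fit on the 4 libraries of SGC-CBP30 and Ctrl PIP alone called Tnf, Lta and Tnfsf11 (edgeR adjusted p = 0.0265, 0.0186 and 0.016, and up to 1 for each over the other alternatives), together with 15.8% of all genes. The medians were -0.97 with EnPGC-1 and -0.96 with SGC-CBP30, beside 0.05 and 0.01 over all genes. The 2 sets of comparisons share the EnPGC-1 and SGC-CBP30 libraries, and within a set the control libraries, so they do not count as separate observations. Ctrl PIP against DMSO, both of them controls here, had 1 of 8 below (Tgfb1; 7.83%), 2 above (Lta and Tnfsf11; 8.34%) and 5 overlapping. By unadjusted p 1 was higher (Lta; 0.233%) and 0 lower (0.364%), DESeq2 called 0 after adjustment (0.0119%), and the median was -0.04, beside -0.05 over all genes. Over all 4 groups together, 4 of the 8 (Tnfsf11, Lta, Tnf and Tnfsf14) had an unadjusted edgeR p under 0.05 for any difference, against 2.47% of all genes, and 0 passed after adjustment. DESeq2 called Tnfsf11 alone of the 8 (adjusted p = 0.000388), with 0.665% of all genes called.

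**Figure D3:**
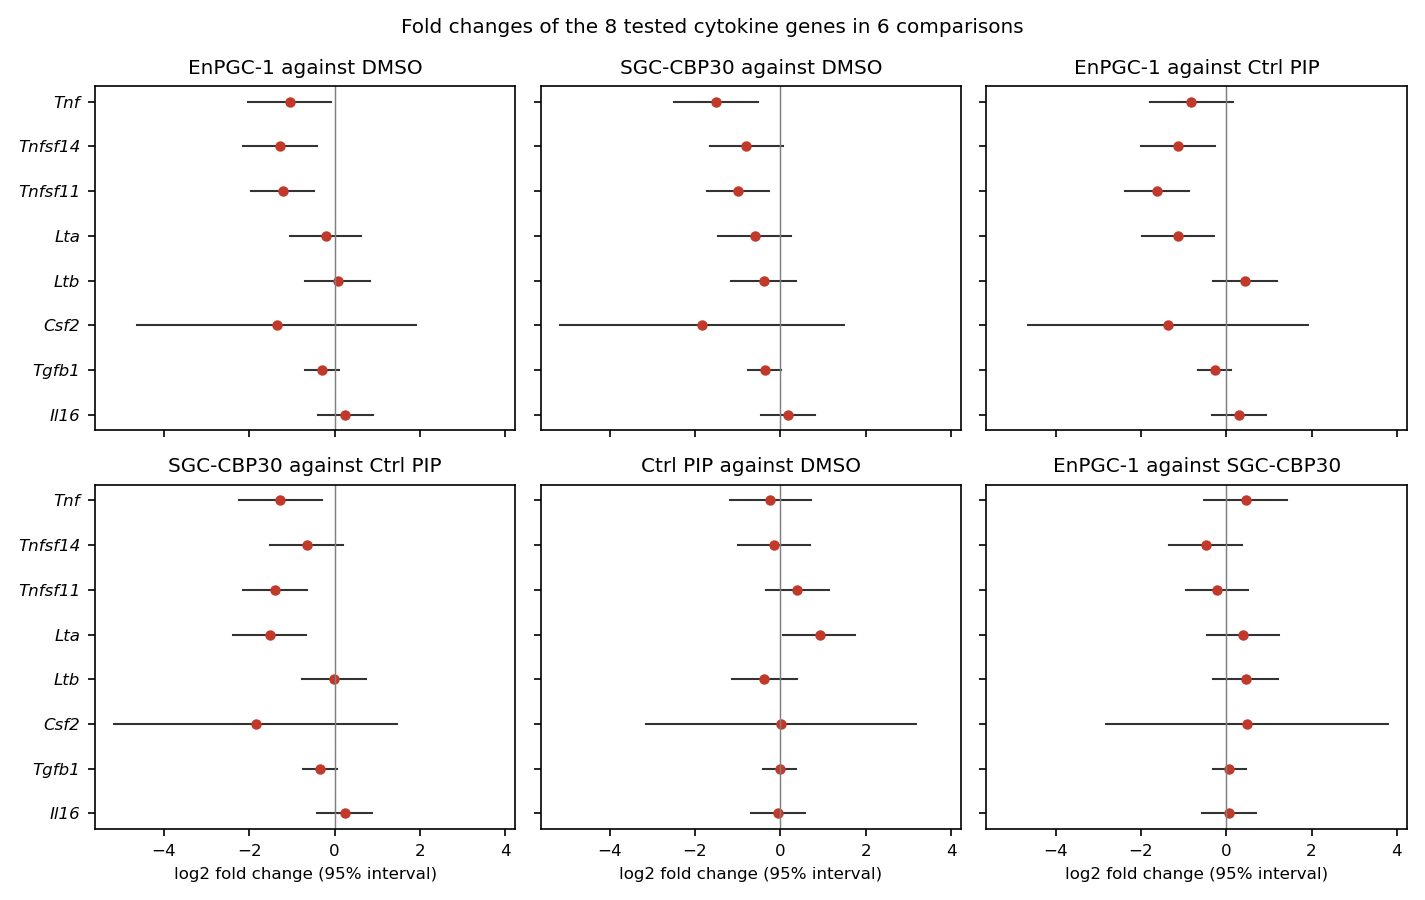
Log2 fold change of the 8 tested cytokine genes in 6 comparisons, the first-named group over the second, with the estimate as a point and its 95% interval (edgeR, before any adjustment for the number of genes) as a line. Tnf, Tnfsf14 and Tnfsf11 lie left of 0 in the 4 comparisons of EnPGC-1 or SGC-CBP30 with a control, Tgfb1 lies near 0 with short intervals, and the intervals of Csf2 span several log2 units.

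EnPGC-1 and SGC-CBP30 were also set against each other. Their doses are not in the sources used here, so the values stand side by side without a matched dose. Of the 8 genes, 0 had an edgeR p under 0.05 before adjustment (2.03% of all genes), and DESeq2 called 0 after adjustment (0.107%). In all libraries 1 lay below (Tnfsf14; 14.7%) and 3 above (Lta, Ltb and Tgfb1; 13.2%). The log2 difference of EnPGC-1 against SGC-CBP30 was 0.46 for Tnf (95% interval -0.51 to 1.42), -0.48 for Tnfsf14 (-1.33 to 0.38) and -0.22 for Tnfsf11 (-0.95 to 0.52). It was 0.39 for Lta (-0.45 to 1.24), 0.46 for Ltb (-0.30 to 1.22), 0.07 for Tgfb1 (-0.32 to 0.47) and 0.06 for Il16 (-0.57 to 0.70). The intervals of Tnf, Tnfsf14, Lta and Ltb reach past 1 log2 unit, so they do not show that the compounds act alike, and that of Tgfb1 is the narrowest. For Csf2 the interval ran over several log2 units, -2.81 to 3.79.

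A contrast of the EnPGC-1 and SGC-CBP30 libraries together with the Ctrl PIP and DMSO libraries together was added after the values above had been seen, so it describes them and adds no support. In it 5 of the 8 had all 4 libraries below (3.73% of all genes) and 0 above (2.98%), and 5 had an unadjusted p under 0.05 in the lower direction (5.4%) and 0 in the higher (2.48%). The log2 fold change was -1.30 (SE 0.22; edgeR adjusted p = 0.569) for Tnfsf11, -1.16 (SE 0.29) for Tnf, -0.96 (SE 0.25) for Tnfsf14 and -0.86 (SE 0.25) for Lta (edgeR adjusted p = 0.594 for these 3), -0.32 (SE 0.12; edgeR adjusted p = 0.619) for Tgfb1 and 0.03 (SE 0.22) for Ltb. DESeq2 gave 4 calls among the 8 there, Tnf, Tnfsf14, Tnfsf11 and Tgfb1, with 1.62% of all genes called.

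Other cytokine and ligand genes of lymphocytes were read from a list of 37, of which 22 passed the filter; Il9, Il17a, Il22, Il24, Areg and Il27 had 0 counts in all 8 libraries. By the edgeR test 0 of the 22 were called in any comparison. For EnPGC-1 against DMSO 13 of 22 were below 0 with a median log2 fold change of -0.21, and for SGC-CBP30 against DMSO 18 of 22 with a median of -0.59. The same count was 18 of 22 for Ctrl PIP against DMSO, with a median of -0.39. Against Ctrl PIP, 9 of 22 were below 0 with EnPGC-1 (median 0.10) and 17 of 22 with SGC-CBP30 (median -0.36). These counts include Il13, whose direction carries no weight. It held 0 counts in every EnPGC-1 and SGC-CBP30 library and passed the filter only through control libraries. Of all genes tested, 49.8%, 52.7% and 58.4% were below 0 for EnPGC-1, SGC-CBP30 and Ctrl PIP against DMSO. Against Ctrl PIP these shares were 45.9% for EnPGC-1 and 48.5% for SGC-CBP30. Ifng, which encodes interferon gamma, the main cytokine of cytotoxic cells, was at 5.71 and 3.36 CPM with EnPGC-1, 2.76 and 2.28 with SGC-CBP30, 6.36 and 9.15 with Ctrl PIP and 12.6 and 8.02 with DMSO. Its 8 libraries separate in the same way as those of Tnf. Its log2 fold change was -2.03 (SE 0.41; edgeR unadjusted p = 0.002) for SGC-CBP30 against DMSO. Lif, which encodes leukaemia inhibitory factor, was at 3.04 and 1.58 CPM with EnPGC-1, 1.66 and 2.72 with SGC-CBP30, 3.70 and 5.67 with Ctrl PIP and 7.73 and 4.25 with DMSO. Osm, which encodes the related oncostatin M, was at 7.55 and 5.98 CPM with EnPGC-1, 4.82 and 3.53 with SGC-CBP30, 6.76 and 5.80 with Ctrl PIP and 9.23 and 7.78 with DMSO. For Osm the EnPGC-1, SGC-CBP30 and Ctrl PIP libraries all lay below those with DMSO. Its log2 fold change against DMSO was -1.03 (SE 0.30) with SGC-CBP30 and -0.44 (SE 0.29) with Ctrl PIP.

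For the receptors of the 10 cytokines the estimates lay on both sides of 0. Of 16 listed, 14 were tested, 0 were called, and their medians were 0.18 for EnPGC-1 and -0.18 for SGC-CBP30 against DMSO, and 0.41 and 0.08 against Ctrl PIP. Tnfrsf1b, which encodes the second TNF receptor of T cells, was at 79.7 and 100 CPM with EnPGC-1, 80.9 and 78.2 with SGC-CBP30, 110 and 116 with Ctrl PIP and 96.0 and 112 with DMSO. Its SGC-CBP30 libraries were below both controls, with log2 fold changes of -0.51 (SE 0.19) against Ctrl PIP and -0.38 (SE 0.19) against DMSO. Csf2ra, the ligand-binding chain of the GM-CSF receptor, was at 14.6 and 12.1 CPM with SGC-CBP30 and 10.1 and 12.1 with EnPGC-1, against 7.74 and 7.21 with Ctrl PIP, while the DMSO libraries, at 12.2 and 7.01, spanned that gap. The receptor of RANKL, Tnfrsf11a, was too low to test, with at most 6 counts in a library, and its decoy Tnfrsf11b had 0 counts in all 8.

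Genes that process, release or retain these cytokines gave 12 tested of 14, with 0 called and medians of 0.04 for EnPGC-1 and -0.15 for SGC-CBP30 against DMSO. Nrros, which encodes a protein that tethers latent TGF-beta, was at 62.0 and 54.0 CPM with EnPGC-1, 52.3 and 46.6 with SGC-CBP30, 64.7 and 57.6 with Ctrl PIP and 74.3 and 64.9 with DMSO. Its log2 fold change for SGC-CBP30 against DMSO was -0.49 (SE 0.19). Among 11 factors that stabilise or destroy cytokine messages, 11 were tested and 0 called. Their medians were -0.05 for EnPGC-1 and 0.03 for SGC-CBP30 against DMSO. Against Ctrl PIP the medians were 0.19 and 0.05, with 4 and 5 of 11 below 0. Elavl1, which encodes HuR, a stabiliser of messages with AU-rich ends, was at 70.5 and 68.5 CPM with EnPGC-1, 85.5 and 87.7 with SGC-CBP30, 105 and 111 with Ctrl PIP and 83.5 and 106 with DMSO. Its EnPGC-1 libraries were the lowest of all 8 (log2 fold change -0.64, SE 0.19, against Ctrl PIP). The same held for Khsrp, another of the 11, at 176 and 203 CPM with EnPGC-1 (log2 fold change -0.54, SE 0.18, against Ctrl PIP).

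Genes that respond to the cytokines were read from 3 lists. Of 18 genes of the TNF and lymphotoxin response, 18 were tested, 0 were called and the medians were -0.03 for EnPGC-1 and -0.12 for SGC-CBP30 against DMSO, beside 0.00 and -0.03 over all genes. Against Ctrl PIP the medians were 0.12 for EnPGC-1 and 0.08 for SGC-CBP30, beside 0.05 and 0.01 over all genes. Relb, an NF-kappaB subunit of the pathway downstream of the lymphotoxin beta receptor, had log2 fold changes of -0.37 (SE 0.20) and -0.34 (SE 0.20) for EnPGC-1 and SGC-CBP30, and -0.27 (SE 0.20) for Ctrl PIP, all against DMSO. The 14 TGF-beta response genes, all tested with 0 called, had medians of 0.34 for EnPGC-1 and 0.20 for SGC-CBP30 against DMSO, with 11 and 10 of 14 above 0. Over all genes the medians were 0.00 and -0.03, with 49.8% and 52.7% of genes below 0. Smad3, a transcription factor activated by the TGF-beta receptor, was at 65.8 and 71.7 CPM with EnPGC-1, 95.1 and 106 with SGC-CBP30, 64.8 and 64.1 with Ctrl PIP and 77.0 and 57.2 with DMSO. The 2 SGC-CBP30 libraries were the highest of the 8 (log2 fold change 0.58, SE 0.20, against DMSO; edgeR unadjusted p = 0.0261). Of 14 STAT and SOCS genes of cytokine receptor signalling, 14 were tested and 0 called, with medians of 0.03 and 0.14 for EnPGC-1 and SGC-CBP30 against DMSO. Socs2, a feedback inhibitor induced by STAT5, was at 6.51 and 2.19 CPM with EnPGC-1, 2.21 and 2.43 with SGC-CBP30, 5.24 and 8.77 with Ctrl PIP and 11.5 and 3.89 with DMSO, and its EnPGC-1 and DMSO libraries overlapped.

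Of 25 transcription factors of cytokine genes, 24 were tested and 0 called. An unadjusted p under the limit in the lower direction was found for 5 in EnPGC-1 against DMSO and 7 in SGC-CBP30 against DMSO (1.81% and 2.82% of all genes in that direction), and 0 in the higher direction. The medians were -0.35 for EnPGC-1, -0.27 for SGC-CBP30 and -0.26 for Ctrl PIP against DMSO. For Ctrl PIP against DMSO 22 of the 24 were below 0. Against Ctrl PIP the shift was absent, with medians of 0.08 for EnPGC-1 and 0.01 for SGC-CBP30, beside 0.05 and 0.01 over all genes. There 11 and 12 of 24 were below 0. By unadjusted p 2 and 3 were lower in the same order (2.77% and 2.56% of all genes). Irf4, a factor induced in step with the strength of the receptor signal, was at 24.6 and 38.7 CPM with EnPGC-1, 40.1 and 39.6 with SGC-CBP30, 68.4 and 60.1 with Ctrl PIP and 52.8 and 88.4 with DMSO. Eomes, a T-box factor of effector and memory CD8 cells, was at 48.4 and 40 CPM with EnPGC-1, 41.7 and 45.1 with SGC-CBP30, 69.9 and 68.5 with Ctrl PIP and 63.7 and 73.1 with DMSO. Both separate the libraries as Tnf does, with log2 fold changes for EnPGC-1 against DMSO of -1.16 (SE 0.32) and -0.63 (SE 0.19). Egr1, an early gene of receptor signalling, was at 40 and 33.3 CPM with EnPGC-1, 27.8 and 27.3 with SGC-CBP30, 53.3 and 34.9 with Ctrl PIP and 61.6 and 60 with DMSO, and its log2 fold change for SGC-CBP30 against DMSO was -1.14 (SE 0.24; edgeR unadjusted p = 0.0026).

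**Figure D4:**
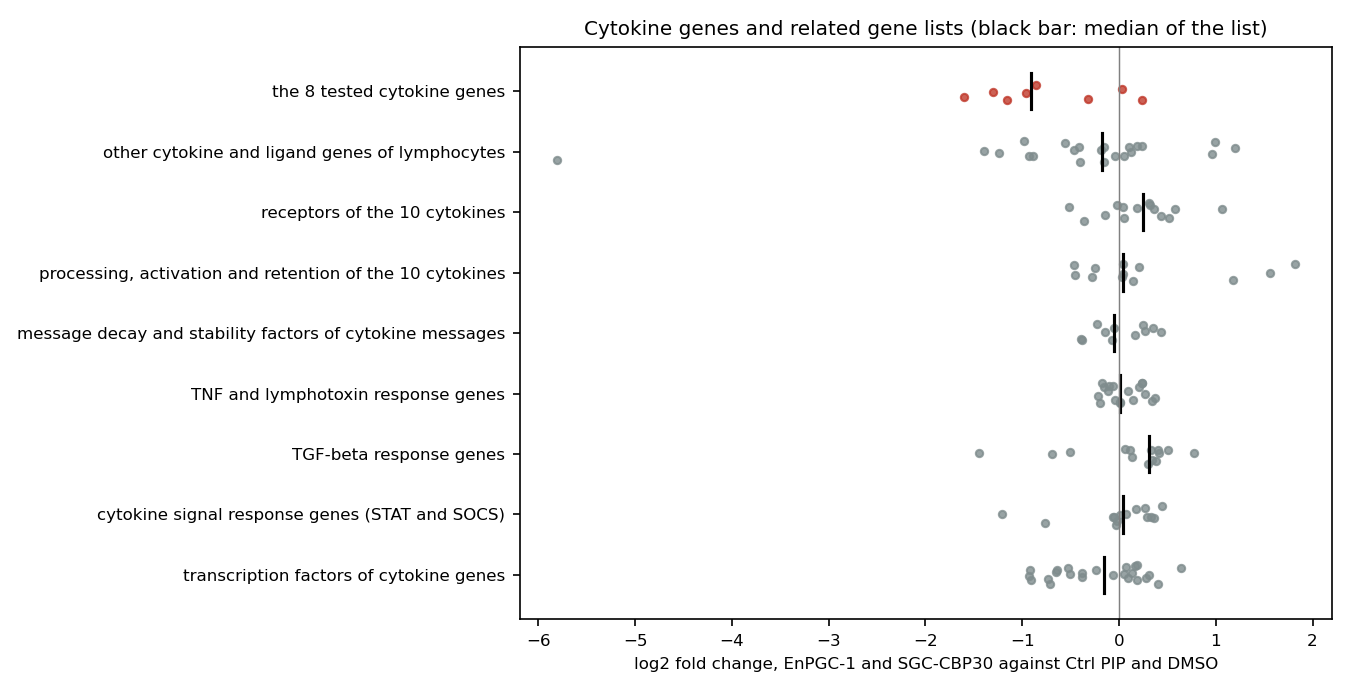
Log2 fold change of the EnPGC-1 and SGC-CBP30 libraries together over the Ctrl PIP and DMSO libraries together, for each tested gene of the 8 cytokines (red) and of 8 related lists (grey), with a black bar at the median of the list. The 8 cytokines have a median of -0.91 beside 0.03 over all genes, and the far left point is Il13, which is listed at 0 in 5 of the 8 libraries. Il13 held 0 counts in every EnPGC-1 and SGC-CBP30 library and its highest counts, 11 and 13, with Ctrl PIP. Such a gene passes the filter only through control libraries, so its direction carries no weight.

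Across the 8 libraries the log2 CPM of Tnf had a Pearson r of 0.87 with Tnfsf11, 0.86 with Tgfb1 and -0.70 with Il16, and Ltb and Il16 had an r of 0.69. The points share their 4 groups and their depth, so these values are descriptions. The genes most like each cytokine over the same 8 libraries, among 10219 others (10220 for Csf2) with a mean of at least 5 CPM, were Samd3 for Tnf (r = 0.965), Irf4 for Tnfsf14 (0.985), Ecd for Tnfsf11 (0.987), Cst7 for Tgfb1 (0.984), Ubtd1 for Lta (0.939), Ppm1m for Ltb (0.974), Kbtbd11 for Il16 (0.995) and Gm14230 for Csf2 (0.944). Each was picked for the highest r among all genes compared, over only 8 libraries, so a high r by itself does not show a link. Gm14230 is listed at 0 in library 2 of SGC-CBP30, as Csf2 is, so that their r includes this shared 0. Samd3 was at 14.1 and 21.6 CPM with EnPGC-1, 8.71 and 12.2 with SGC-CBP30, 36.0 and 29.5 with Ctrl PIP and 28.4 and 40.2 with DMSO. Cst7, which encodes cystatin F, an inhibitor of proteases in cytotoxic granules, was at 32.7 and 40.8 CPM with EnPGC-1, 30.7 and 26.7 with SGC-CBP30, 57.3 and 57.0 with Ctrl PIP and 58.1 and 64.5 with DMSO. Kbtbd11, like Il16, had its lowest value in library 2 of DMSO (305 CPM, against 651 CPM in library 1).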

How the data were processed

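The authors deposited whole-number counts of 45777 genes in each library and a table of regularized log2 values (rlog) made over all 8 libraries, whose header names stand 1 column to the left of their values. Per the submitters' processing notes, HISAT2, StringTie, DESeq2 and the build mm10 were used, without version numbers. How reads were counted, on which strand and with which annotation or filter was not given in the sources used here. The RNA was prepared with RNeasy columns and a strand-marking poly(A) library kit, per the labels' protocols. There is an excess of values of exactly 3 in the count table (5323, against 3406 of 2 and 2175 of 4), so low values need not be plain read counts.

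Counts were divided by edgeR's TMM-scaled library sizes to give CPM. The tests used edgeR 4.0.16 in R 4.3.3 (filterByExpr by group, robust quasi-likelihood fit of all 4 groups, no covariate), after a check on simulated counts. Groups and replicate numbers came from the labels, and replicate numbers were not used to pair libraries. Alternatives used DESeq2 1.42.0, limma 3.58.1 on the log2 values, other filters, scalings and fits, and left-out libraries. The members and gene lists were chosen with earlier results of these data known. Named genes were all members, for each tested member the gene with the highest Pearson r of log2 CPM (prior count 2), and the 2 genes of smallest p per list and comparison, of which a part, picked after their values were seen, is described. Positions and promoters are from RefSeq on GRCm38.p6, the assembly of mm10. Gene strands are from the GENCODE annotation. Transcript length and GC content are those of the longest GENCODE transcript of each gene, and 92.2% of tested genes had them. Intervals are 95% confidence intervals of the log2 fold change, from its standard error and the total degrees of freedom (residual plus prior) of the edgeR fit. They rest on the variation between libraries and do not give the range of the libraries. Of the genes in these lists, 1 is not reported here by name.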

Additional observations from a re-analysis of the deposited data

How the results depend on the processing

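Of 792 refits of the 56 fold changes, 759 kept their direction and 11 passed the threshold. Calls appeared only in these settings: without both libraries numbered 1, 1 of the 8 genes for EnPGC-1 against DMSO; with the 4 libraries of the comparison alone, 3 for SGC-CBP30 against Ctrl PIP; and with DESeq2, 1 for EnPGC-1 against Ctrl PIP, 2 for SGC-CBP30 against Ctrl PIP, 1 for any difference and 4 for the 2 compounds together against both controls. The cause was not tested. DESeq2 called 23, 78, 2, 49, 50 and 18 genes in all for EnPGC-1, SGC-CBP30 and Ctrl PIP against DMSO, for EnPGC-1 and SGC-CBP30 against Ctrl PIP and for EnPGC-1 against SGC-CBP30, 224 for the compounds together and 107 for any difference, where edgeR called 0; without replicate 1 of DMSO edgeR called 290 for the compounds together, 0 of them among the 8. With the replicate number as a replicate block 0 of the 8 were called in any comparison, and likewise with the numbers of Ctrl PIP exchanged. The deviations of same-numbered libraries correlated at 0.666 between EnPGC-1 and DMSO, and at -0.252 to 0.231 between the other pairs of groups. The numbers thus do not establish pairs across the 4 groups. A block for EnPGC-1 and DMSO alone was not fitted, so pairing within that comparison was not tested.

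Reversals numbered 33. Csf2 for Ctrl PIP against DMSO was -0.05 with the replicate block and with the length and GC offset, -0.03 with the exchanged block, -0.18 without both libraries numbered 1, and -0.16 to 0.22 with each library left out in turn. Without both libraries numbered 1, Lta was 0.17 for EnPGC-1 against DMSO, and Ltb and Il16 were 0.10 and 0.38 for Ctrl PIP against DMSO. Without both numbered 2, Ltb was -0.11 for EnPGC-1 against DMSO and 0.29 for SGC-CBP30 against Ctrl PIP, where the length and GC offset gave 0.25, Tnfsf14 was 0.20 for Ctrl PIP against DMSO, and Csf2 was -0.27 for EnPGC-1 against SGC-CBP30. With each library left out in turn, EnPGC-1 against DMSO gave -0.46 to 0.01 for Lta, -0.25 to 0.49 for Ltb and -0.05 to 0.63 for Il16. SGC-CBP30 against DMSO gave -0.71 to 0.03 for Ltb and -0.11 to 0.56 for Il16. Ctrl PIP against DMSO gave -0.69 to 0.05 for Ltb, -0.35 to 0.33 for Il16 and -0.42 to 0.22 for Tnfsf14. SGC-CBP30 against Ctrl PIP gave -0.31 to 0.23 for Ltb. EnPGC-1 against SGC-CBP30 gave 0.00 to 0.92 for Tnf, -0.50 to 6.94 for Csf2, -0.06 to 0.20 for Il16 and -0.45 to 0.07 for Tnfsf11, and the compounds together gave -0.13 to 0.24 for Ltb. Tnf, Tnfsf14, Tnfsf11 and Tgfb1 kept their direction against both controls under every alternative run for EnPGC-1 and SGC-CBP30. Low counts limit what can be read of Csf2, Il3 and Il10.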
